A study of Homo sapiens with 9 samples.

Results

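The SR splicing factors SRSF1, SRSF2, SRSF3, SRSF4, SRSF5, SRSF6 and SRSF7, the related factors TRA2A and TRA2B, and the kinase CLK1 were followed in a SLAM-Seq experiment. These 10 genes were found among the 26869 genes of the table through the RefSeq identifiers of its rows, with 26 rows and 17 distinct 3′ intervals. All cells were MCF10A, a non-transformed human mammary epithelial line, in which JUN was knocked out and replaced by a JUN protein fused to an auxin-inducible degron, together with TIR1, the plant receptor that marks the fusion for degradation. The JUN knockout, the fusion and TIR1 were shared by all 3 groups. The first group was the unlabelled control without 4-thiouridine (4sU). The labels do not say whether it received DMSO, so effects of 4sU and of DMSO cannot be told apart against it. The second received DMSO, followed by a pulse of 100 µM 4sU that lasted 1 h. In the third, indole-3-acetic acid (IAA, an auxin, 100 µM) was given 1 h before the same pulse. Each group was labelled as 3 replicates, but the 3 IAA columns held identical values in all 56868 rows and were counted as 1 library. Since IAA acts on the fusion protein, JUN mRNA does not check its depletion. The study describes its replicates as biological, while the labels do not say whether they were separate cultures.

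SR proteins bind short sequences in exons and recruit the splicing machinery to nearby splice sites. CLK kinases, among which CLK1 is the best studied, phosphorylate the arginine and serine rich domains of SR proteins in the nucleus and thereby control where they reside and what they bind. Many genes for SR proteins hold poison exons, whose inclusion sends the transcript to nonsense-mediated decay, and CLK1 pre-mRNA is known to be kept in the nucleus with introns retained. In SLAM-Seq, newly made RNA takes up 4sU, and alkylated 4sU is sequenced as C at T positions. The T>C conversion rate of a 3′ interval therefore follows the share of its RNA made during the pulse. CPM give the total mRNA, old and new, at the same interval. Both were measured at 3′ ends, where isoforms with the same end are not separated.

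In each gene the interval with most reads was used. The 3′ ends of 5 members are shown because rates and CPM were measured on 3′ intervals. The rates cover the whole interval, not only the bases shown. Their intervals were placed on hg19, the build in the submitters' processing notes, by an annotated 3′ UTR or last exon of exactly the deposited length. Each window of 30 bases is printed in the direction of the transcript, with the poly(A) signal in capitals:
CLK1: ttcctacttctATTAAAgaatggacataga
SRSF1: gagctaATTAAAtgtgaaccctgaccagaa
SRSF2: agtttaATTAAAacattttcttggtgttag
SRSF5: tgttattgatAATAAAatattataaaacta
SRSF7: ctcaacAATAAAtctgcagagattgaacaa
The letters AATAAA, or else ATTAAA, were searched on the transcript strand alone in the last 60 bases. One of them was present in 47.0% of all 89217 protein-coding transcripts of the annotation. The CLK1 window lies at chr2:201717732-201717761 on the minus strand, at the end of a last exon of 441 bases (chr2:201717732-201718172), of which 39.2% were T. The SRSF1 window lies at chr17:56078280-56078309 on the minus strand, in the 3′ UTR of NM_006924, an interval of 4490 bases, whereas the one used for its values had 4831. The SRSF2 window is at chr17:74730209-74730238 (minus strand), that of SRSF5 at chr14:70238693-70238722 (plus strand) and that of SRSF7 at chr2:38970745-38970774 (minus strand), all within 3′ UTRs. T made up between 35.1% and 36.0% of the SRSF1, SRSF2, SRSF5 and SRSF7 intervals. The SRSF2 3′ UTR overlaps MFSD11 and a second annotated gene, ENSG00000267168, on the opposite strand, and that of SRSF1 overlaps ENSG00000266086 on its own strand. No annotated end of exactly the deposited length was used for the other 5 genes, which are annotated on hg19 at chr6:36562130-36573377 (SRSF3), chr1:29474255-29508412 (SRSF4), chr20:42086533-42094686 (SRSF6), chr7:23544399-23571660 (TRA2A) and chr3:185632346-185655891 (TRA2B).

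Reads per library were recovered from the CPM and totalled between 18997637 and 24014195. Each SR member had between 866 and 6374 reads in a library, whereas CLK1 had 405, 678 and 623 reads in the unlabelled libraries, 91, 87 and 94 with DMSO and 4sU, and 81 with IAA and 4sU. The labelled cell type was checked by markers of basal mammary epithelium, all 7 of which were at 1 CPM or more in each library. Summed, they lay between 2087 and 3657 CPM without 4sU, between 2568 and 2886 with DMSO and 4sU, and at 2935 with IAA. The luminal markers summed to between 107 and 121 CPM without 4sU, between 119 and 149 with DMSO and 4sU, and 139 with IAA. Those of fibroblasts, leukocytes and endothelium each summed to at most 14.5 CPM in any library. Of the luminal markers 3 of 6 reached 1 CPM in each library, as did 2 of 5 fibroblast, 1 of 3 leukocyte and 0 of 2 endothelial markers. ELF5, COL1A2, PTPRC, CD3E and CDH5 were at 0 in every library.

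The first question was how much of each mRNA had been made during the pulse. CLK1 stood far above the SR factors. Its conversion rate was 0.0556%, 0.0389% and 0.0548% in the unlabelled libraries, and 3.92%, 3.09% and 1.95% with DMSO and 4sU. The labelled libraries did not overlap with the background, and replicate 3 was the lowest of them. The mean rose 60.03-fold, from 0.0498% ± 0.00943 to 2.99% ± 0.987 (SD, n = 3 each). On the log2(rate + 0.0005) scale the difference was 4.88 (SE 0.39, adjusted p = 0.00080, limma with Benjamini-Hochberg adjustment). Ranked by mean rate with DMSO and 4sU, CLK1 was at place 48 of 7001 genes with at least 200 reads on average, at percentile 99.3. Its rate was 9.35 times that of the highest SR factor and 16.8 times the SR median.

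**Figure D1:**
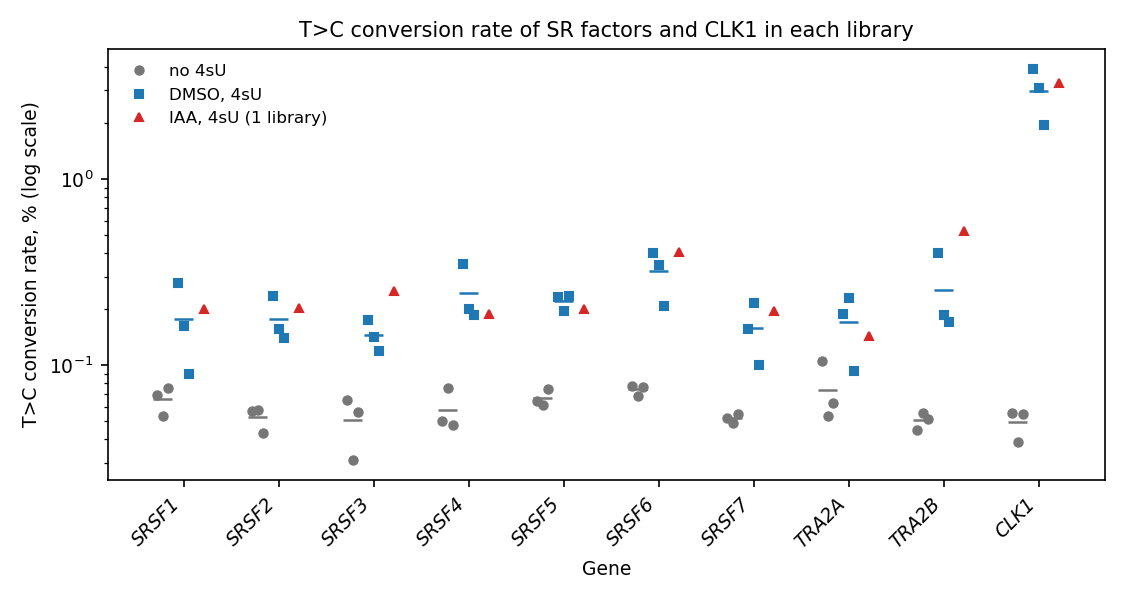
T>C conversion rate in percent (log axis) of each gene in each library. Grey circles are unlabelled libraries, blue squares DMSO with 4sU, red triangles the single IAA library, and short lines group means. CLK1 lies between 1.95% and 3.92% in the labelled libraries, above every labelled value of the SR factors.

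The SR factors were labelled to a far smaller degree, with mean rates between 0.146% (SRSF3) and 0.319% (SRSF6) against a median of 0.206% over the ranked genes. SRSF6, an SR factor with a pair of RNA recognition motifs, was at 0.0776%, 0.0681% and 0.0769% unlabelled, and at 0.402%, 0.347% and 0.209% with DMSO and 4sU. All labelled libraries were above the background, replicate 3 by the least. The mean rose 4.30-fold to 0.319% ± 0.0993 (SD, n = 3), a log2 difference of 1.53 (SE 0.31, adjusted p = 0.0097, limma with Benjamini-Hochberg adjustment), and SRSF6 was at place 1854. TRA2B, which binds GA-rich exonic enhancers, came next with 0.0451%, 0.0557% and 0.0518% unlabelled and 0.402%, 0.187% and 0.170% labelled. Its groups did not overlap, and labelled replicate 1 stood well above the other labelled libraries. The mean of 0.253% ± 0.129 (SD, n = 3) gave a log2 difference of 1.51 (SE 0.34, adjusted p = 0.014, limma).

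SRSF4, a long SR protein with an extended arginine and serine rich domain, was at 0.0502%, 0.0755% and 0.0478% without 4sU and 0.348%, 0.202% and 0.186% with DMSO and 4sU. SRSF5 had the lowest SD of the labelled SR factors (0.0229%), at 0.233%, 0.195% and 0.237% against 0.0646%, 0.0611% and 0.0743% unlabelled. In both genes the groups were apart, with log2 differences of 1.42 for SRSF4 (SE 0.30, adjusted p = 0.011, limma) and 1.22 for SRSF5 (SE 0.23, adjusted p = 0.0078, limma). SRSF2, a factor of nuclear speckles, was at 0.0568%, 0.0574% and 0.0435% unlabelled and at 0.235%, 0.158% and 0.140% labelled. Its log2 difference was 1.13 (SE 0.25, adjusted p = 0.013, limma).

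SRSF3 and SRSF7, which also bind mRNA for nuclear export, had the lowest labelled means of the 9. SRSF3 was at 0.0655%, 0.0310% and 0.0560% unlabelled and 0.175%, 0.142% and 0.120% labelled, and SRSF7, which carries a zinc knuckle, at 0.0521%, 0.0491% and 0.0546% unlabelled and 0.158%, 0.217% and 0.100% labelled. The groups did not overlap in either gene. The log2 differences were 0.97 for SRSF3 (SE 0.25, adjusted p = 0.022, limma) and 0.99 for SRSF7 (SE 0.28, adjusted p = 0.027, limma).

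SRSF1, the founding SR protein, and TRA2A, the paralog of TRA2B, did not pass the test. SRSF1 was at 0.0690%, 0.0534% and 0.0759% unlabelled and 0.279%, 0.163% and 0.0900% labelled, with the groups apart by a narrow margin. Its log2 difference was 0.89 (95% interval 0.02 to 1.75, adjusted p = 0.080, limma). TRA2A was at 0.105%, 0.0532% and 0.0631% unlabelled and 0.188%, 0.230% and 0.0934% labelled. It was the only member whose groups overlapped, since labelled replicate 3 lay below unlabelled replicate 1, and its difference was 0.80 (95% interval -0.03 to 1.63, adjusted p = 0.093, limma).

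Thus 8 of 10 members passed the test of labelling, beside 50.5% of all 10853 genes tested, and in 9 of 10 the groups did not overlap, beside 63% of all genes. The median log2 difference of the 9 SR factors was 1.13, against 1.25 over all genes tested, many with fewer reads. Of the 7001 genes with at least 200 reads on average, 4633 passed, with a median of 1.13. In that setting 9 of 10 members passed. From the highest to the lowest mean the order of the SR factors was SRSF6, TRA2B, SRSF4, SRSF5, SRSF2, SRSF1, TRA2A, SRSF7 and SRSF3, and the means of neighbours in it differed by less than the larger of their SDs. Replicate 3 had the lowest labelled rate in 9 of the 10 genes and replicate 1 the highest in 7. The median rate of all genes was 0.273%, 0.198% and 0.201% in DMSO replicates 1, 2 and 3. With 1 replicate left out of both groups, 2 (without 1), 1 (without 2) or 2 (without 3) members passed. CLK1 was among them each time, with TRA2B without replicate 1 and SRSF6 without replicate 3. Over all 26869 genes, with no filter on low rates, 4 members passed (CLK1, SRSF4, SRSF6 and TRA2B).

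The next comparison asked whether total mRNA differed between cells with DMSO and 4sU and the unlabelled control. CLK1 fell and no SR factor passed the test. CLK1 was at 20.0, 30.3 and 32.8 CPM in the unlabelled libraries and at 4.27, 3.62 and 4.68 CPM with DMSO and 4sU. The highest labelled value was less than the lowest unlabelled one. The mean was 6.61-fold lower, at 4.19 ± 0.533 against 27.7 ± 6.77 CPM (SD, n = 3 each). On the log2(CPM + 1) scale it fell by 2.48 (SE 0.23, 95% interval -2.99 to -1.97, adjusted p = 0.00092, limma with Benjamini-Hochberg adjustment). With IAA and 4sU it was at 4.04 CPM, 6.86-fold lower than the unlabelled mean. Why the CPM of CLK1 were lower was not tested. In these bulk samples, fewer cells with the transcript and less transcript per cell cannot be told apart either. The change in CLK1 was the 10th largest fall among 11433 genes, of which 190 (1.66%) were lower and 0% higher by limma. At an unadjusted p under 0.05, 2.69% were higher by limma, and no SR factor was higher or lower. The edgeR test called 0 genes higher and DESeq2 called 3. With 1 replicate left out of both groups the lower genes numbered 478 (without 1), 27 (without 2) and 36 (without 3), with CLK1 among them each time.

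**Figure D2:**
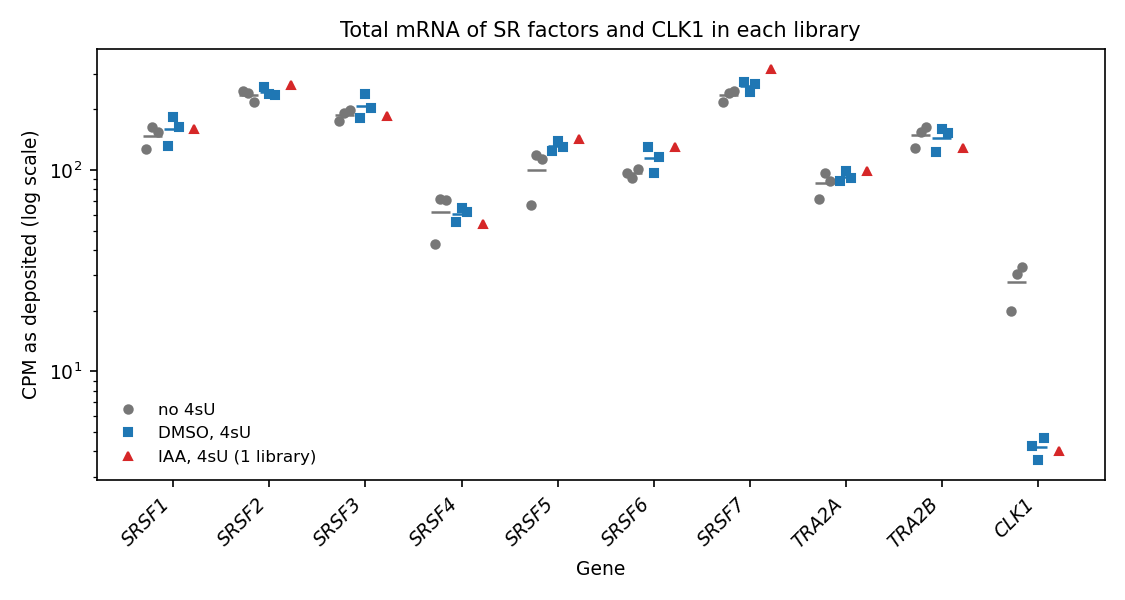
Total mRNA as CPM (log axis) of each gene in each library. Grey circles are unlabelled libraries, blue squares DMSO with 4sU, red triangles the single IAA library, and short lines group means. CLK1 lies at 20.0 to 32.8 CPM without 4sU and at 3.62 to 4.68 CPM with it, while the groups of the SR factors other than SRSF5 overlap.

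Among the SR factors, SRSF5 came closest to a difference. It was at 67.2, 119 and 113 CPM unlabelled and 125, 139 and 130.2 CPM with DMSO and 4sU. The groups did not overlap, yet unlabelled replicate 1 lay far below the other unlabelled libraries, and the log2 difference of 0.40 (95% interval -0.14 to 0.93, adjusted p = 0.64, limma) did not pass. Without replicate 1 of both groups it was 0.09. SRSF5 and CLK1 were the only members without overlap in CPM (2 of 10), beside 19.5% of all genes. SRSF6 was at 96.6, 91.2 and 101 CPM against 129.8, 96.4 and 116, with a log2 difference of 0.19 (95% interval -0.17 to 0.56). SRSF7 was at 218, 241 and 247 CPM against 273, 245 and 266, a difference of 0.11 (95% interval -0.23 to 0.46).

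The other SR factors overlapped widely between groups. SRSF1 was at 126, 163 and 155 CPM unlabelled and 131, 183 and 163 labelled, with a log2 difference of 0.06. SRSF2, at 245, 242 and 217 CPM against 258, 238 and 236, differed by 0.01 and SRSF3, at 175, 192 and 198 CPM against 181, 239.6 and 202, by 0.10. The values of SRSF4 were 42.8, 72.1 and 70.7 CPM against 54.9, 64.3 and 61.6, with a difference of -0.04. TRA2A was at 71.8, 96.9 and 88.5 CPM against 88.1, 98.5 and 91.6 (difference 0.08), and TRA2B at 129, 155 and 163 CPM against 123, 159 and 153 (difference -0.08). The 95% intervals of these 6 genes reached no lower than -0.56 and no higher than 0.49. Differences were positive in 7 of the 9 SR factors, with a median of 0.08 against 0.04 over all genes. Unlabelled replicate 1 had the lowest unlabelled CPM in 8 of the 10 members. Without replicate 1 of both groups, 4 of the 9 differences were positive and the median was -0.05, against 0.01 over all genes, whereas without replicate 2 or replicate 3 the positive differences numbered 8. Without replicate 1, SRSF6 was at 0.02, SRSF7 at -0.05, TRA2A at -0.08, SRSF2 at -0.07 and SRSF4 at -0.30.

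CLK1 was also set against the SR factors within each library. On the log2 CPM scale, CLK1 minus the mean of the 9 SR factors was -2.44, -2.18 and -2.05 in the unlabelled libraries, -4.70, -5.01 and -4.68 with DMSO and 4sU, and -4.87 with IAA. The step of -2.57 between the groups was far larger than their SDs of 0.200 and 0.187. On the log2(rate + 0.0005) scale the same difference was -0.11, -0.25 and -0.07 unlabelled, 3.69, 3.66 and 3.37 with DMSO and 4sU, and 3.52 with IAA. An exact two-sided permutation test gave p = 0.1 for both measures, the smallest that 3 against 3 libraries allow. Without 4sU, CLK1 was thus within 0.25 log2 units of the SR mean on the log2(rate + 0.0005) scale. In each library with DMSO and 4sU, CLK1 was at least 3.37 above that mean. The added 0.0005, as a fraction, is about as large as the unlabelled rates, so these are not distances between the rates themselves.

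High rate and low total mRNA were found together in other genes too. Of the 47 other genes whose rate was at least that of CLK1, 32 were lower in total mRNA with 4sU, beside 1.66% of all 11433 genes. The median log2 change of the 47 was -1.37, against 0.04 over all genes. These 47 were taken from genes with at least 200 reads on average over unlabelled and labelled libraries together. Genes with few labelled reads, CLK1 among them, entered only through their unlabelled reads, which favours genes that fall. The 5 genes whose CPM pattern was nearest to CLK1 were taken from 7004 genes by the root mean square difference of centred log2(CPM + 1) over the 7 distinct libraries, which had a median of 1.31. The nearest was NR_026778, an entry whose identifier matched no symbol (0.196), followed by PLK2, a stress-responsive kinase (0.211), EPC1, a subunit of the NuA4 histone acetyltransferase complex (0.222), DUSP6, a phosphatase that switches off ERK (0.240), and HES1, a repressor downstream of Notch (0.258). DUSP6 was at 102, 148 and 123 CPM unlabelled and 28.4, 23.4 and 25.4 with DMSO and 4sU. HES1 was at 26.9, 28.8 and 24.8 CPM unlabelled and 2.96, 3.75 and 4.33 labelled. Total mRNA fell in all 5, by 2.15 (PLK2) to 2.69 (NR_026778) on the log2 scale. Since they were chosen for a CPM pattern near that of CLK1, these falls follow from the choice. Their mean labelled rates, which were not used in it, were between 2.22% (NR_026778) and 4.93% (HES1).

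The remaining genes of the splicing pathway were described from fixed lists. The shares over all genes tested are 50.5% with a higher rate and 1.66% with lower total mRNA. Among the other SR family members, 3 of 5 had a higher rate with 4sU and 0 of 5 changed in total mRNA. The highest rate that passed was that of SRSF8, at 0.306%, 0.357% and 0.312% labelled against 0.0742% ± 0.0123 (SD, n = 3) unlabelled. Of the 9 splicing kinases, 6 were tested, 4 had a higher rate and 1 was lower in total mRNA. This was CLK4, the closest relative of CLK1, which was at 8.65, 10.6 and 10.4 CPM unlabelled, 3.71, 4.79 and 3.29 CPM with DMSO and 4sU, and 3.69 CPM with IAA. The groups did not overlap and CLK4 fell by 1.18 on the log2 scale (SE 0.20, adjusted p = 0.018, limma with Benjamini-Hochberg adjustment). Its labelled rates of 4.17%, 0.964% and 0.0734% were too scattered to pass (adjusted p = 0.066, limma).

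The other CLK genes were chosen after their values were seen. CLK2 was at 18.8, 21.4 and 22.9 CPM unlabelled and 14.1, 9.04 and 15.8 CPM labelled. These values did not overlap, but the log2 difference of -0.72 did not pass (adjusted p = 0.21, limma), whereas its rate of 0.692% ± 0.239 (SD, n = 3) did (adjusted p = 0.0032, limma). CLK3 was at 12.4, 10.1 and 8.58 CPM against 9.25, 7.75 and 10.1, a difference of -0.21. The kinase with the highest rate past the test was DYRK1A, at 0.698% ± 0.155 (SD, n = 3).

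**Figure D3:**
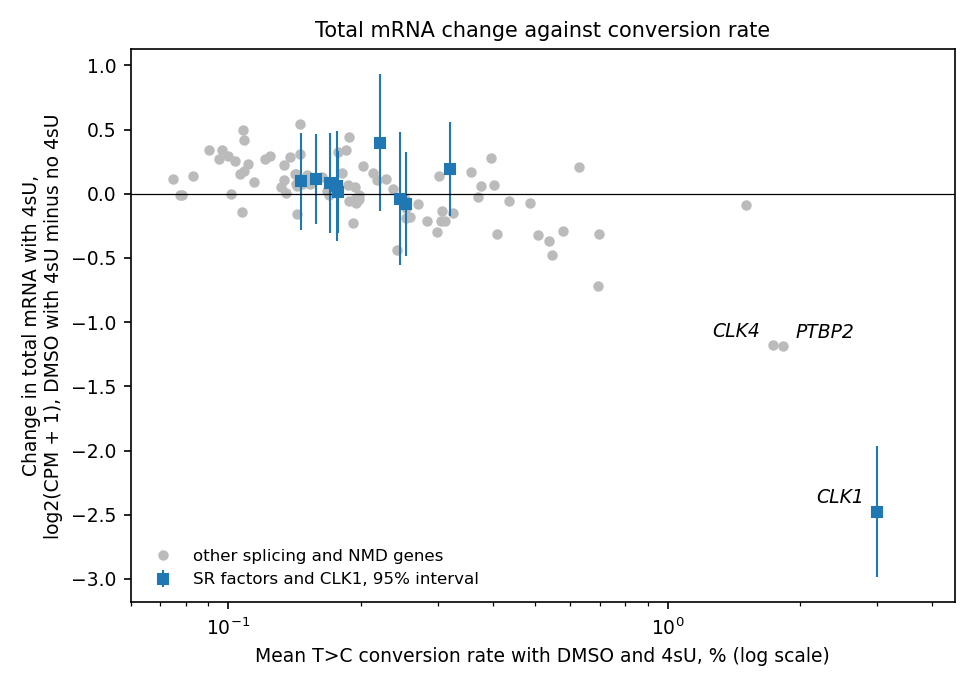
Change in total mRNA with 4sU (log2 of CPM + 1, DMSO with 4sU minus no 4sU) against the mean conversion rate with DMSO and 4sU (percent, log axis). Blue squares with 95% intervals are the SR factors and CLK1, grey dots the genes of the other splicing and NMD lists with a test of total mRNA, and the named genes passed that test. CLK1 lies at 2.99% and -2.48, away from the SR factors around 0.

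The other lists are read against the same shares over all genes, 50.5% in the rate and 1.66% in lower total mRNA. In the list of SR-related and speckle proteins, 10 of 14 had a higher rate and 0 of 14 changed in total mRNA, with PNN, a peripheral protein of the exon junction complex, at the highest rate (0.546% ± 0.234, SD, n = 3). Of the hnRNPs, which often oppose SR proteins at exons, 11 of 23 had a higher rate, led by HNRNPA0 at 0.371% ± 0.0650 (SD, n = 3), and 1 of 23 was lower in total mRNA. This gene was PTBP2, a neuronal repressor of exons, at 4.75, 3.57 and 4.11 CPM unlabelled and 0.940, 1.25 and 1.74 labelled, a fall of 1.19 (SE 0.20, adjusted p = 0.018, limma). Among the core spliceosome genes 10 of 27 tested had a higher rate and 0 of 28 changed in total mRNA, with SNRPA of the U1 particle at 0.628% ± 0.00602 (SD, n = 3). For nonsense-mediated decay the counts were 5 of 9 in the rate and 0 of 10 in total mRNA. SMG9, a partner of the SMG1 kinase, had the highest rate there, at 1.92%, 2.41% and 0.181% from at most 2.07 CPM. Its rate was 0 in every unlabelled library, so it met the filter on rates through the labelled libraries alone. Its place among the 5 is therefore not read as a result. No gene of these lists had a lower rate or more total mRNA past the test.

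The last comparison asked whether JUN depletion with IAA altered the members. With 1 IAA library there was no test. A gene was called when IAA was at least 1 log2 unit from the DMSO mean and outside the DMSO range. No member was called in total mRNA, beside 0.141% of all 11371 genes, nor in the rate, beside 20.7% of all 11716 genes. The share in the rate was lower among genes with more reads. With at least 200 reads on average over the labelled libraries, as the SR factors but not CLK1 had, 636 of 7017 genes were called. Each DMSO library was also set against the other labelled libraries, the IAA library included. In the rate this gave a call in 22.8%, 21.4% and 20.3% of genes for DMSO replicates 1, 2 and 3. In total mRNA it gave a call in 0.273%, 1.08% and 0.0616%. The share with IAA lay between these values in both measures, but they do not compare DMSO libraries with each other alone.

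CLK1 with IAA lay within the range of the DMSO libraries in both measures. Its total mRNA was at 4.04 CPM, between the DMSO values of 3.62 and 4.68, and its rate was 3.27%, between 1.95% and 3.92%. The log2 differences from the DMSO mean were -0.11 in total mRNA and 0.02 in the rate, against SDs of the DMSO libraries of 0.157 and 0.372.

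In total mRNA the SR factors differed little from DMSO. As deposited, 5 members were above the DMSO range (SRSF2 at 263 CPM, SRSF5 at 142, SRSF6 at 130.02, SRSF7 at 318 and TRA2A at 98.7) and 1 below it (SRSF4 at 54.1), which is 6 of 10 beside 43.8% of all genes. SRSF1 at 160.0 CPM, SRSF3 at 185 and TRA2B at 128 were within it. After TMM scaling 4 of 10 were outside, beside 41.4% of all genes. These were SRSF7, at 0.20 above the DMSO mean on the log2 scale, and SRSF3 (-0.24), SRSF4 (-0.23) and TRA2B (-0.25) below it. SRSF7 and SRSF4 were thus outside on the same side with both scalings, whereas SRSF2, SRSF5, SRSF6 and TRA2A were outside only as deposited.

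**Figure D4:**
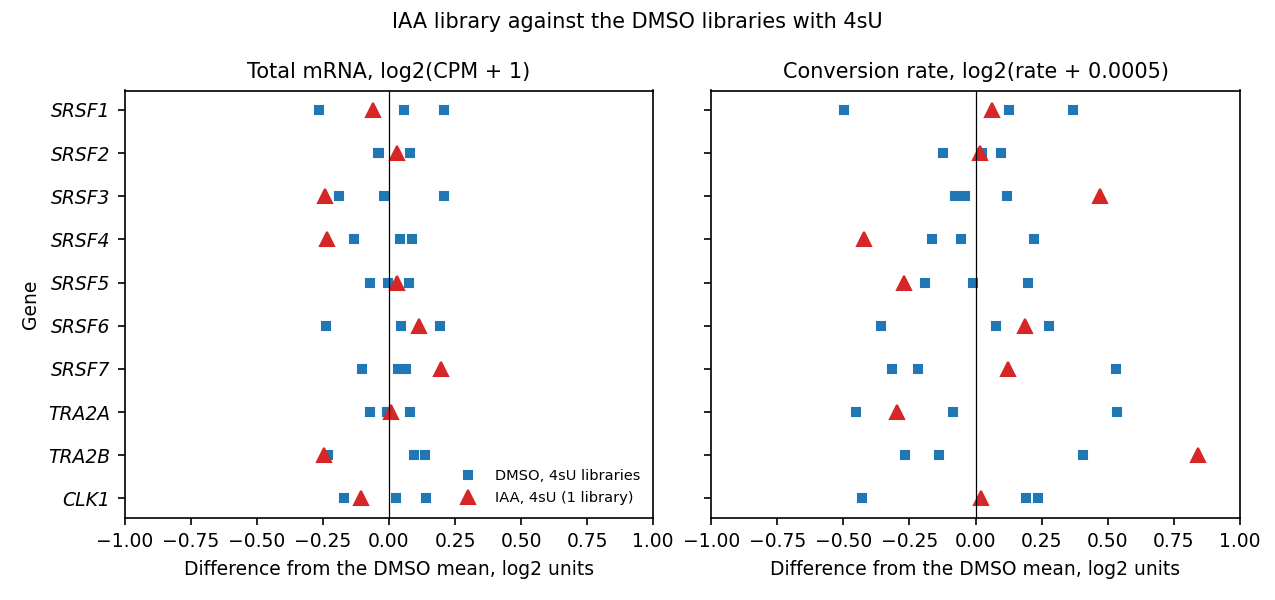
Difference of each labelled library from the mean of the 3 DMSO libraries in log2 units, for total mRNA after TMM scaling (left) and for the conversion rate after centring each library on its median (right). Blue squares are DMSO libraries and red triangles the IAA library. The IAA library lies between -0.25 and 0.20 in total mRNA, and TRA2B is the farthest from 0 in the rate at 0.84.

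The rates with IAA varied more. TRA2B was at 0.525%, above the DMSO values of 0.402%, 0.187% and 0.170%, and SRSF3 at 0.253%, above 0.175%, 0.142% and 0.120%. SRSF6 was at 0.408%, just above its highest DMSO value of 0.402%. These 3 of 10 members were the ones outside the DMSO range as deposited, beside 45.7% of all genes, and none was below it. The median rate of all genes in the IAA library was 0.254%, and without centring the median log2 difference of all genes from DMSO was 0.16. Genes called then numbered 1452 above and 750 below DMSO, as against 1164 above and 1259 below after centring. After centring, TRA2B was 0.84 and SRSF3 0.47 above the DMSO mean on the log2 scale. SRSF4, at 0.190%, and SRSF5, at 0.201%, were 0.42 and 0.27 below it. With these, 4 of 10 were outside the DMSO range, beside 49.2% of all genes. The other rates were 0.200% for SRSF1, 0.204% for SRSF2, 0.197% for SRSF7 and 0.143% for TRA2A. Over all settings TRA2B lay between 0.61 and 1.07 and was called in 3 of them, without DMSO replicate 1 (1.07) and without the filter or without centring (1.00 each).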

How the data were processed

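Alkylated RNA was made into QuantSeq 3′ mRNA libraries and sequenced as single-end reads of 75 bases. The authors processed them with a Nextflow SLAM-Seq pipeline, on hg19 per the submitters' processing notes. The tool versions are not given in the sources used here. The authors deposited the conversion rate as a fraction of T positions read as C per 3′ interval, without background subtraction, and it is printed as a percent. The deposited CPM are a signal, reads scaled to library size, in which nested intervals of a gene repeat reads. The interval length was used to tell intervals apart and to place them. The number of T positions behind each rate was not used here.

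Identifiers were matched to symbols through a RefSeq table of GRCh38.p14, used for names only (97.7% of rows). CPM were whole multiples of 1 read in 100% of non-zero cases (tolerance 0.001 of a read), which gave reads and library totals. The interval with most reads stood for a gene, in place of the planned mean rate and summed reads over its intervals. This was chosen after seeing that intervals are nested and that a 10-base interval of SRSF2 (TaagaaaaTg, T positions in capitals, hg19 chr17:74732236-74732245, minus strand) gave a rate of 33.3% from 3 reads.

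The members and gene lists were chosen with earlier results of these data known. Members were all named. From each list, up to 3 genes with the largest change past the threshold in total mRNA were named, together with the gene of the highest rate past the threshold in the rate. Labelled DMSO and unlabelled libraries (3 each) were compared with limma 3.58.1 (R 4.3.3; trended, robust variances) on log2(rate + 0.0005) where at least 3 of 6 rates were above 0. For total mRNA, limma was run on log2(CPM + 1) with TMM where CPM reached 1 in 3 of 6 libraries. Adjusted p values (Benjamini-Hochberg, all genes) under 0.05 passed. The fold change on these scales understates that of low genes. For IAA, the filters required 2 of the 4 labelled libraries. edgeR 4.0.16 and DESeq2 1.42.0 on recovered reads were alternatives. On simulated data with 200 changed genes, limma on log2(CPM + 1) recovered 98.5% (13 of 210 calls false, 11403 genes, 3-fold changes). On rates with 9-fold changes it recovered 52% of them (42 of 146 calls false, 10012 genes), and 99% (9 of 207 false, 6979 genes) with at least 200 reads on average. All members had this average, CLK1 only through its unlabelled libraries. The mean rates of the SR factors rose 2.31- to 4.98-fold, and recovery of changes of that size was not simulated. The spread added between simulated libraries was the same for all genes and was not taken from these data. Recovery at the spread of these data is therefore not known. Replicate numbers of the DMSO and unlabelled libraries correlated in total mRNA (r of deviations from 0.319 to 0.392) but not in rates (-0.0341 to 0.000367), so they pair libraries in total mRNA only. Python 3.11.15, pandas 2.3.3 and scipy 1.17.1 were used.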

Additional observations from a re-analysis of the deposited data

How the results depend on the processing

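CLK1 passed in all 11 settings of the rate (log2 difference 3.62 to 5.60, adjusted p at most 0.021, limma) and all 12 of total mRNA (-2.79 to -1.84, adjusted p at most 0.033, limma, edgeR or DESeq2). No SR factor passed in total mRNA under any of them. The sign of 4 SR factors in total mRNA turned when a replicate was left out. SRSF2 lay between -0.0738 and 0.0664, SRSF7 between -0.0544 and 0.190, TRA2A between -0.0805 and 0.145 and SRSF4 between -0.295 and 0.0820. In the rate, leaving out a replicate lowered the genes that passed from 5476 to between 2601 and 3041 and the members from 8 to between 1 and 2, with fewer libraries. Without the filter on rates 4 members passed (CLK1, SRSF4, SRSF6 and TRA2B), and SRSF1 passed with a rate above 0 in every library or with at least 200 reads on average. Genes lower in total mRNA numbered 190, between 27 and 478 with a replicate left out (478 without replicate 1), and 400 with DESeq2. The cause was not tested. With IAA, 2423 genes were called in the rate, but 1432 with a pseudocount of 0.002, 1304 with a rate above 0 in every library and 636 with at least 200 reads. In total mRNA the 16 genes became 57 with a pseudocount of 0.25, 6 with 5, 26 with deposited totals (24 higher and 2 lower, as against 13 and 3), and between 11 and 101 with a replicate left out (101 without replicate 1). The mean over intervals, which takes in the 10-base interval of SRSF2, moved SRSF2 with IAA to -2.08 in the rate and ended its labelling call (3.06, adjusted p = 0.16, limma), leaving 7 members past the test.

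With the replicate number as a block, 4531 genes and 7 members passed in the rate (SRSF7 was lost, adjusted p = 0.060, limma), where the numbers do not pair the libraries. In total mRNA the block left 223 genes lower and 1 member, CLK1 (-2.48, adjusted p = 0.0026, limma), and changed no other call of a member. No paired analysis was possible for IAA because it was 1 library. Rates of genes with few reads are limited by depth, CLK1 having 81 to 94 reads in labelled libraries.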
